A study of Mus musculus with 5 samples.

Results

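The Irx1, Irx2 and Irx4 cluster was followed as 77 bins of 50 kb on mouse chromosome 13, from 70750001 to 74600000 in build mm9, out of 50542 bins with a value in all 5 libraries. Each bin carries PC1, the first principal component of a Hi-C interaction matrix, which sorts the genome into compartment A (open, gene-rich chromatin, positive PC1) and compartment B (closed, gene-poor chromatin, negative PC1). The interval was chosen by its measured PC1: most of it was drawn as a stretch higher in Early than in Basal, and its distal end as a stretch higher in Late than in Early. For those 2 comparisons the differences and all counts of bins, by limma, sign or rank, are therefore given as a description only. No p-value is given for them, and the counts support nothing. Late was not compared with Basal in that choice, and it is tested below, but it shares the Basal and Late libraries with the comparisons that were used. The files name no genes. The positions used, about 72.1 Mb for Irx1, 72.8 Mb for Irx2 and 73.4 Mb for Irx4, are approximate, and each gene is read from the 4 bins within 100 kb of its position.

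The libraries came from neuronal nuclei of the mouse hippocampus, sorted by flow cytometry after staining for NeuN and GFP. All mice had the same strain label, ArcCreERT2 x R26R-STOP-floxed eYFP with genotype +/+, in which the promoter of Arc, an immediate early gene, drives a tamoxifen-dependent Cre that switches on a yellow fluorescent protein, so a nucleus is marked by its activity around the dose of 4-hydroxytamoxifen before contextual fear conditioning. By title, 2 libraries were Basal, 1 was Early and 2 were Late. All 5 carried one treatment label (foot shock and tissue collection on day 0, without recall), and neither the times behind the group names, nor which stained population each group held, nor the age and sex of the animals are in the labels. Each group was made from 100000 nuclei pooled from 2 animals. The files hold no expression values, so the neuronal label could not be set against marker genes.

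Irx genes encode homeodomain transcription factors of the Iroquois family, which pattern the early embryo. In mice they lie in a pair of clusters that arose by duplication, and Irx1, Irx2 and Irx4 form one of them. Irx1 and Irx2 take part in patterning of the neural tube, limb and other organs, and Irx4 is known for its role in the ventricles of the heart. Genes of this kind often sit in long gene-poor stretches that hold distant enhancers. In the RefSeq gene order, 0 protein-coding genes lie between Irx1 and Irx2 and 0 between Irx2 and Irx4. Adamts16, a secreted metalloprotease gene, precedes Irx1. Irx4 is followed by Ndufs6, a subunit of mitochondrial complex I, Mrpl36, a mitochondrial ribosomal protein, Lpcat1, a phospholipid-remodelling enzyme, and Slc6a3, the dopamine transporter. That order comes from build GRCm38.p6, so no bin is assigned to these neighbours.

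Promoters of 2 of the 3 genes were in the RefSeq table of GRCm38.p6, and they are shown because these are the genes by which the interval is named. Each sequence is the 250 bases before the gene's start on the plus strand of chromosome 13, 5′ to 3′, with every CG in capitals.
Irx2: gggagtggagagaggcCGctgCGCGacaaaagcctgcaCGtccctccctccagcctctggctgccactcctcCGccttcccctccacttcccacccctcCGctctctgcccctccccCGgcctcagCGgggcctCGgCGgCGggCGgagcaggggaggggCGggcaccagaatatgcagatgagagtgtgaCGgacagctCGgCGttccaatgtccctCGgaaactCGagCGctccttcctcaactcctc
Irx4: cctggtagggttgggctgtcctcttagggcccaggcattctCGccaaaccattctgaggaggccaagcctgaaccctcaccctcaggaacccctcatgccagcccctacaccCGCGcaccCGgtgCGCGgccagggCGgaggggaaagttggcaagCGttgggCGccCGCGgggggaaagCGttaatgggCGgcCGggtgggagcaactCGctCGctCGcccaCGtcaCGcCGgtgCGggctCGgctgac
Irx2 holds 19 CG and Irx4 holds 22, which read the same on both strands, against a median of 6 over 32851 promoters of the same length. Of all those promoters, 19.7% hold at least 19 and 14.8% at least 22. G and C made up 68.4% of the Irx2 sequence and 68.8% of the Irx4 sequence, against a median of 52.4%. Bins of 50 kb do not resolve a promoter, so these sequences are a description of the genes and not of the PC1 signal.

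On chromosome 13 the lowest Pearson r between any 2 libraries was 0.847 over 2307 bins, so PC1 has the same sign orientation in all 5 libraries there. Local bin-to-bin noise over all bins fitted, in units of PC1, was 0.127 and 0.129 for Basal, 0.226 for Early, and 0.114 and 0.204 for replicates 1 and 2 of Late. A bin's deviation from the bins 100 kb on either side was also taken within the interval. Its SD there was 0.179 and 0.190 for Basal, 0.292 for Early, and 0.167 and 0.306 for Late. Over all bins that SD was 0.195 and 0.196 for Basal, 0.261 for Early, and 0.166 and 0.245 for Late. Early and Late replicate 2 were thus the noisiest libraries, and the part of this noise in the results below was not tested.

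In the Basal libraries the cluster was a trough of compartment B between 2 stretches of compartment A. Mean PC1 over the interval was -0.13 for each Basal library and 0.96 for the Early one, while replicates 1 and 2 of Late had 0.23 and 0.44. All 5 values stand in the same order by group, with Early highest, the 2 Late libraries between and the Basal libraries lowest. The number of bins in compartment A was 30 and 27 of 77 for Basal, 74 for Early, and 39 and 64 for Late. The Basal trough was a single run of negative bins, from 71150001 to 73400000 in replicate 1 and from 71050001 to 73450000 in replicate 2. Its run thus held the bins at Irx1 and Irx2 in both replicates, whereas the bin at Irx4 lay on its distal edge, with PC1 of 0.021 and -0.15.

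**Figure D1:**
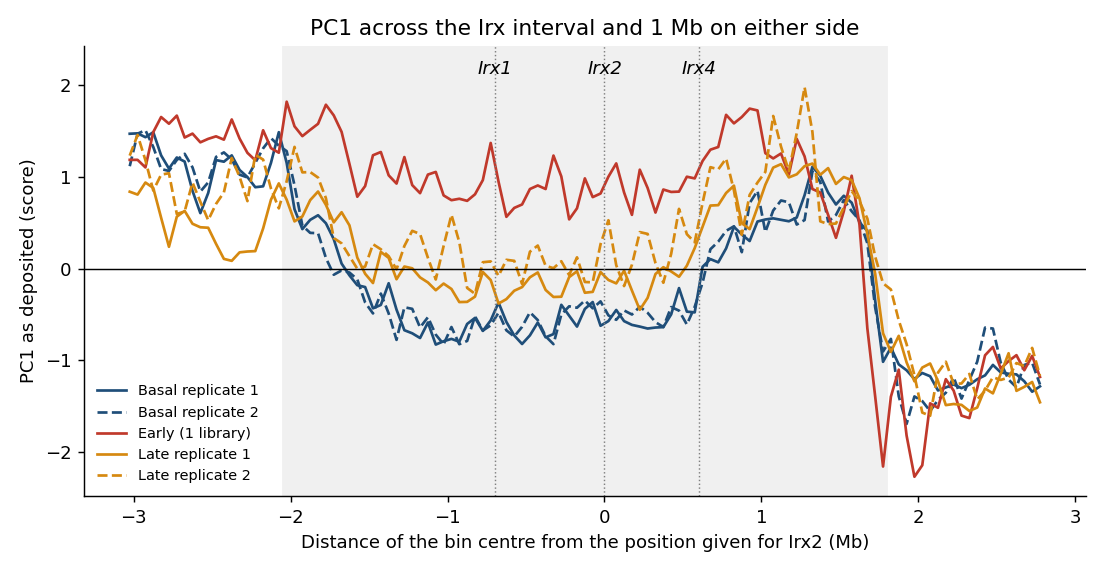
PC1 as deposited (score, vertical axis) of each 50 kb bin against its distance in Mb from the position given for Irx2, for 2 Basal, 1 Early and 2 Late libraries; the grey area is the interval of 77 bins and the dotted lines are the gene positions. The Basal libraries dip into compartment B across Irx1 and Irx2, Early stays in compartment A up to the distal border, and the Late libraries run near 0 between them.

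Going along the interval, the stretch from its start to Irx1 (27 bins) had a mean PC1 of -0.22 and -0.25 in the Basal pair, 1.16 in Early and 0.14 and 0.35 in the Late pair. The stretch from Irx1 to Irx2 (14 bins) was the lowest part, with -0.59 and -0.54 for Basal, 0.82 for Early, and -0.20 and 0.037 for Late. From Irx2 to Irx4 (12 bins) the means were -0.54 and -0.50 in the Basal pair, 0.89 in Early and -0.10 and 0.22 in the Late pair. In these 3 stretches Early lay above the Late libraries and the Late libraries above the Basal ones, with no overlap of groups. From Irx4 to the end (24 bins) the means were 0.43 and 0.44 for Basal, 0.84 for Early, and 0.75 and 0.89 for Late. There the Early mean fell between those of the Late replicates, and all libraries were in compartment A on average. By median Early was the highest, with 1.19 against 0.91 and 0.85 for Late and 0.52 and 0.52 for Basal. Its bins ran from -2.16 to 1.75, and the lowest were in the part drawn as higher in Late than in Early.

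**Figure D2:**
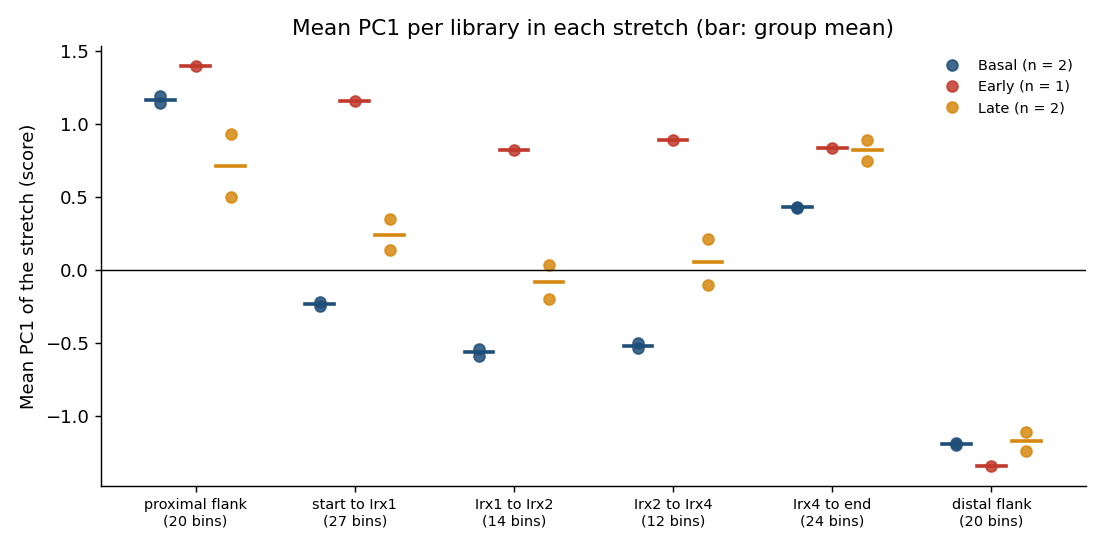
Mean PC1 (score, vertical axis) of each library in the 1 Mb flanks and in the 4 stretches of the interval, with 2 Basal, 1 Early and 2 Late libraries as points and a bar at each group's mean. Between the start and Irx4 the order is Early, Late, Basal from high to low. In the stretch distal to Irx4 the Early mean (0.84) lies between the Late means (0.75 and 0.89). The Early bins there run from -2.16 to 1.75.

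Early placed all 3 genes in compartment A. The run of positive bins that held Irx1, Irx2 and Irx4 in Early was 5200 kb long, from 69250001 to 74450000. Early minus Basal had a median of 1.31 over the 77 bins, from -1.20 to 2.00, against a median of 0.00078 over all 47652 bins fitted. With limma, 63 of the 77 bins were called higher in Early than in Basal and 3 lower, where 9.97% and 9.98% of all bins were called. These counts belong to the comparison that drew the interval, and nothing is read from them. By sign, Early was in A and both Basal libraries were in B in 45 of 77 bins, against 5.70% of all bins. All 45 lay between 71.15 and 73.40 Mb, from well proximal of Irx1 up to Irx4. Early was also above all 4 other libraries in 63 bins, against 29.0% of all bins. The interval was drawn mostly where Early exceeded Basal, so these counts by sign and rank follow from that choice too. Nothing is read from them either.

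The edges of the interval show where the choice stopped. At the proximal edge, PC1 in the first bin inside was 1.15 and 1.28 in the Basal pair, 1.82 in Early and 0.75 and 0.95 in the Late pair. In the bin just outside it was 1.49 and 1.34 for Basal, 1.27 for Early, and 0.93 and 0.66 for Late. The last bin inside the distal edge had -1.02 and -0.90 in the Basal pair, -2.16 in Early and -0.70 and -0.16 in the Late pair. Just outside the distal edge the values were -0.86 and -0.77 for Basal, -1.40 for Early, and -0.91 and -0.23 for Late.

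In Late the cluster was higher than in Basal, and on average lower than in Early. Mean PC1 over the interval was 0.34 ± 0.15 in Late and -0.13 ± 0.0041 in Basal (SD, n = 2 each), a difference of 0.47. Per bin, Late minus Basal had a median of 0.52, from -0.36 to 0.88, against -0.011 over all bins. The difference was above 0 in 75 of 77 bins, against 48.4% of all bins. In limma, 38 of the 77 bins (49.4%) passed an adjusted p of 0.05 and all 38 were higher in Late, where 8.78% of all bins were called higher and 7.63% lower. Their median difference was 0.65 PC1 units with a median SE of 0.137, and their adjusted p ran from 0.00623 to 0.0494. An interval drawn where Early exceeded Basal, and at its distal end where Late exceeded Early, can favour bins that are low in Basal or high in Late, so the share over all bins is not the share that no change would give, and this count is not independent of the choice. Both Late libraries lay above both Basal libraries in 65 bins (30.1% of all bins) and below both in 1 bin (31.9% of all bins). A comparison of 2 libraries with 2 cannot give an exact 2-sided permutation p below 0.333, so no such test is given for the mean.

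The called bins were spread over the whole cluster rather than at 1 gene. From the start to Irx1, 12 of 27 bins were called higher in Late, from Irx1 to Irx2 8 of 14, from Irx2 to Irx4 7 of 12, and from Irx4 to the end 11 of 24. The longest unbroken run of called bins had 9 bins, from 71450001 to 71900000, proximal of Irx1, with a mean difference of 0.72. The next had 7 bins, from 73300001 to 73650000, across Irx4, with a mean difference of 0.67. How many bins passed rested on the libraries and bins used. Leaving out either Basal replicate lowered the number called, and leaving out Late replicate 1 raised it, in the interval and over all bins fitted. The mean Late minus Basal difference (0.467) was 0.464 without Basal replicate 1 and 0.470 without Basal replicate 2. It was 0.571 without Late replicate 1 and 0.362 without Late replicate 2. With all sequences of the files in the fit, including chromosome 7 with its inverted sign, 0 of the 77 bins passed in limma with the same differences. Of all 50542 bins 0 passed as well. At an unadjusted p under 0.05 it was 51 of 77, against 13365 of all 50542. Removing a 5 Mb running mean, little longer than the interval, left 5.19% of the 77 bins called (3 higher and 1 lower). Of all 47652 bins 3329 were called, so the interval's share was then below that over all bins. At each of Irx1, Irx2 and Irx4, 0 of the 4 bins were called.

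**Figure D3:**
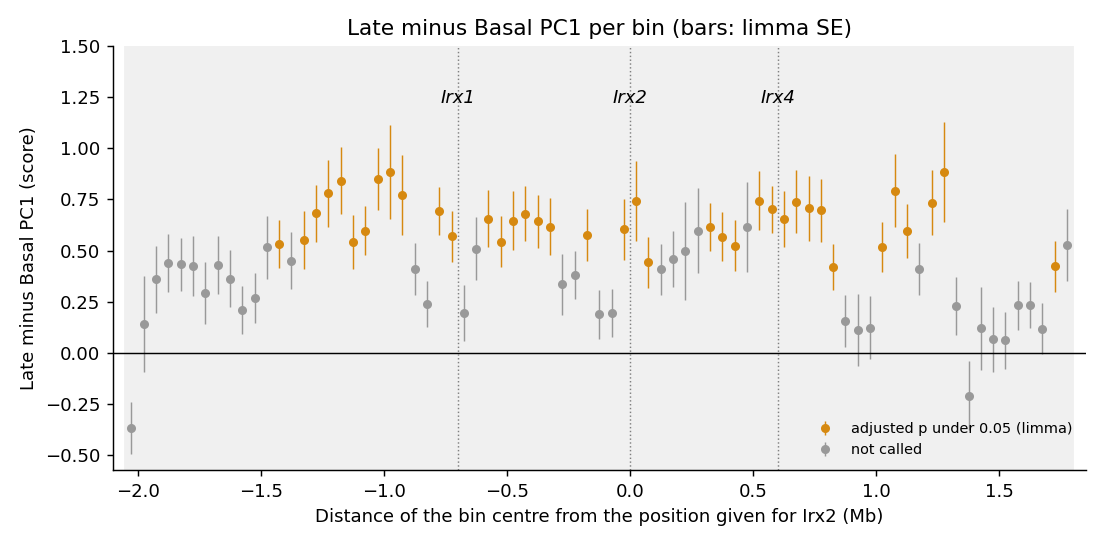
Late minus Basal PC1 (score, vertical axis) of each of the 77 bins against the distance in Mb from the position given for Irx2, with limma's SE as bars; 38 bins in orange passed an adjusted p of 0.05 and the others are grey. Most differences lie between 0.2 and 0.9, and the first bin of the interval has the lowest (-0.36).

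At Irx1, mean PC1 of the 4 bins was -0.55 and -0.61 in the Basal pair, 0.96 in Early and -0.22 and 0.042 in the Late pair. The Late mean was thus close to the border of the compartments, at -0.088 ± 0.18 in Late against -0.58 ± 0.044 in Basal (SD, n = 2 each), a difference of 0.49. In limma 2 of its 4 bins, both proximal of the position, were called higher in Late (adjusted p = 0.00675 and 0.0180). The bin that starts at the position given for Irx1 had -0.38 and -0.079 in Late against -0.37 and -0.48 in Basal, so the groups overlapped there, and it was not called (difference 0.19, limma adjusted p = 0.362). Without Basal replicate 1, 0 of the 4 bins were called, and without Basal replicate 2, 1 was called.

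At Irx2, the 4 bins had a mean PC1 of -0.50 and -0.46 for Basal, 0.94 for Early, and -0.14 and 0.17 for Late. Late averaged 0.014 ± 0.22 and Basal -0.48 ± 0.027 (SD, n = 2 each), a difference of 0.50, with the 2 Late libraries on opposite sides of 0. In limma 3 of 4 bins were called higher in Late. The bin at the position itself had -0.12 and 0.53 in Late against -0.57 and -0.51 in Basal (difference 0.74, SE 0.194, limma adjusted p = 0.0347). Without Basal replicate 1, 0 bins were called. Without Basal replicate 2, or without Late replicate 2, 1 was called.

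At Irx4, the values were -0.20 and -0.24 in the Basal pair, 1.12 in Early and 0.35 and 0.62 in the Late pair. This was the one gene of the cluster at which both Late libraries were in compartment A, at 0.49 ± 0.19 in Late and -0.22 ± 0.026 in Basal (SD, n = 2 each), a difference of 0.71. All 4 of its bins were called higher in Late by limma, with adjusted p from 0.00623 to 0.0151. Leaving out Basal replicate 1 left 2 called bins, and so did leaving out Basal replicate 2. The difference at Irx4 was not tested against those at Irx1 and Irx2. In both Basal and both Late libraries the order of the 3 genes from high to low was Irx4, Irx2 and Irx1. The values of neighbours in that order did not overlap between replicates in Basal, whereas Irx2 and Irx1 overlapped in Late.

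By sign, both Late libraries were in A and both Basal libraries in B in 7 of 77 bins (9.09%), against 3.13% of all bins. In 29 bins (37.7%) the 2 Late libraries had opposite signs, compared with 5.61% of all bins. Late replicate 2 lay above replicate 1 in 63 of 77 bins (81.8%), against 50.5% of all bins. In Late replicate 1 a run of B from 71600001 to 73150000 still held Irx1 and Irx2, whereas Late replicate 2 was split into 22 runs of one sign within the interval.

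Late lay below Early across most of the cluster. Late minus Early had a median of -0.76 over the 77 bins, against -0.0030 over all bins. In limma, 48 bins were called lower in Late and 3 higher, where 6.44% and 6.28% of all bins were called, and since this comparison too was used in drawing the interval, nothing is read from these counts. The highest Late minus Early differences, 1.11, 1.43 and 1.73, were in the last 3 bins of the interval, from 74450001 to 74600000, the stretch by which the distal end was drawn. Late and Early were compared through the same Late and Early libraries as in the comparisons with Basal, so the 3 sets of differences are not independent.

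The depth of the trough was measured against both of its sides, with no test. The mean of the 26 bins from Irx1 to Irx4 minus that of the 1 Mb distal of Irx4 was -1.10 and -1.07 for Basal, -0.34 for Early, and -1.04 and -0.89 for Late. The step up at Irx4 was therefore of similar size in Late and Basal, and about the same size remained after a 10 Mb running mean was removed, with -1.12 and -1.09 in the Basal pair, -0.35 in Early and -1.08 and -0.97 in the Late pair. Toward the other side, the mean of the same 26 bins minus that of the proximal flank was -1.71 and -1.72 for Basal, -0.55 for Early, and -0.65 and -0.81 for Late. That flank itself had a mean PC1 of 1.15 and 1.19 in the Basal pair, 1.40 in Early and 0.50 and 0.93 in the Late pair, so the shallower trough in Late stands beside a lower flank. Across the 77 bins, Pearson's r between profiles was 0.956 for the Basal replicates, 0.817 for the Late replicates, 0.765 to 0.926 between a Late and a Basal library, and 0.332 to 0.383 between Early and any other library. Neighbouring bins share reads, so these r are descriptions.

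Taking away the 10 Mb running mean kept the order of the groups and brought the Late replicates together. The interval then averaged 0.026 and 0.038 for Basal, 0.76 for Early, and 0.38 and 0.41 for Late. Late was 0.39 ± 0.020 and Basal 0.032 ± 0.0084 (SD, n = 2 each), a difference of 0.36, and Early minus Basal was 0.73. At the genes, Late minus Basal was then 0.37 at Irx1, 0.41 at Irx2 and 0.67 at Irx4, and Early minus Basal was 1.21, 1.05 and 0.99 at the same genes. In the stretch distal of Irx4, the Early mean (0.66) was close to the Basal means (0.61 and 0.62), while both Late means stood at 0.96. That Early mean joins unlike parts, with bins from -2.23 to 1.51. By median, Early had 0.97 there, against 0.68 and 0.73 for Basal and 1.08 and 0.91 for Late. The lowest Early bins were in the stretch by which the distal end was drawn. The mean of Early minus Basal over that stretch was 0.047 after the removal and 0.41 as deposited. The mean of Late minus Basal was 0.35 after it and 0.39 as deposited.

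**Figure D4:**
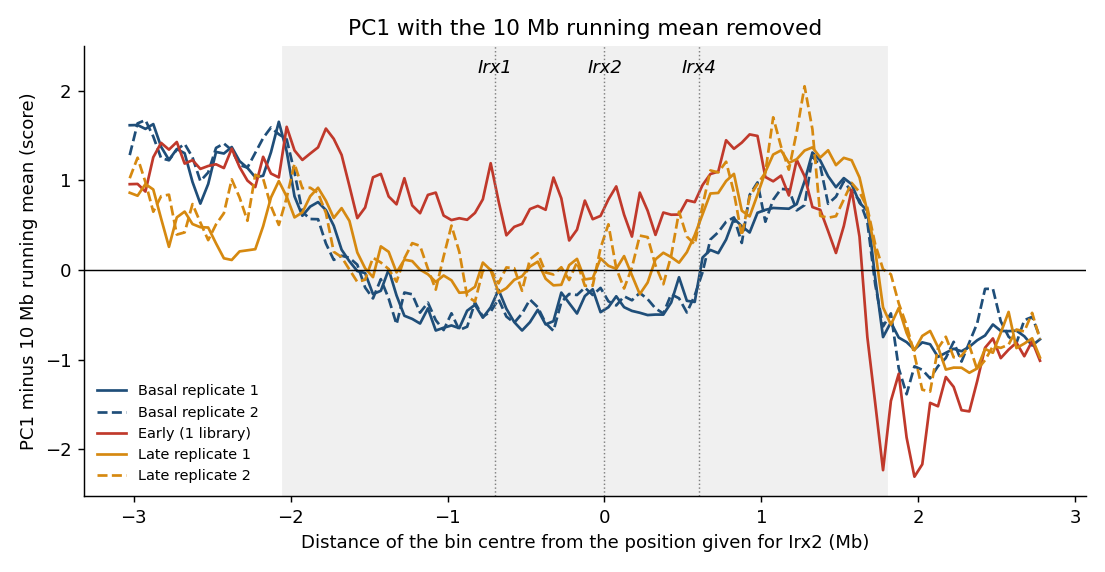
PC1 minus its 10 Mb running mean (score, vertical axis) of each bin against the distance in Mb from the position given for Irx2, for the same 5 libraries, the interval in grey. The 2 Late libraries lie closer together than as deposited (interval means 0.38 and 0.41), between Basal (0.026 and 0.038) and Early (0.76).

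The distal border of the A stretch stayed almost in place. The first bin in B beyond Irx4 started at 74500001 in both Basal libraries and in Late replicate 1, at 74450001 in Early and at 74550001 in Late replicate 2, that is within 1 bin of the Basal position. The largest fall between neighbouring bins was -0.76 and -0.70 in Basal and -1.13 in Early, each at that border, and -0.65 in Late replicate 1. In Late replicate 2 the largest fall, -0.97, lay elsewhere, at 74150001. The largest rise between neighbouring bins was 0.50 at 73400001 and 0.54 at 73700001 in the Basal replicates, 0.49 at 73000001 in Early, and 0.34 at 71350001 and 0.61 at 73850001 in the Late replicates. The highest bin of the interval was its first one, at 70750001, in both Basal libraries and in Early, but lay near the distal end in Late, with 1.15 at 74100001 in replicate 1 and 1.98 at 74050001 in replicate 2. The lowest bin was the last one, at 74550001, in every library other than Late replicate 2, whose lowest value was -0.27 at 71950001. Beyond the border all 20 bins of the distal flank were in B in every library, with means of -1.18 and -1.20 in the Basal pair, -1.34 in Early and -1.24 and -1.11 in the Late pair. Early was the lowest library in 7 bins of the interval, all between 74.10 and 74.60 Mb, which is 9.09% of the interval against 28.9% of all bins. The choice of the interval shaped that count too, and nothing is read from it.

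Windows of 77 bins without a gap were taken elsewhere among the bins fitted, which leave out chromosome 7. They were ranked by how close their 5 library means came to those of the cluster. Of 1107 windows, the closest lay on X from 92100001 to 95950000, with -0.20 and -0.23 for Basal, 0.72 for Early, and 0.39 and 0.40 for Late, at a Euclidean distance of 0.314 PC1 units. The next lay on X from 101600001 to 105450000, with -0.26 and -0.22 in the Basal pair, 0.74 in Early and 0.43 and 0.39 in the Late pair (distance 0.339). The third, and the closest on a fitted autosome, lay on chromosome 9 from 29550001 to 33400000, with -0.010 and 0.013 for Basal, 0.62 for Early, and 0.17 and 0.36 for Late (distance 0.397). On X the lowest Pearson r between any 2 libraries was 0.639, the lowest of the chromosomes fitted. The median distance over all 1107 windows was 1.74. None of the 3 had an Early mean as high as that of the Irx cluster (0.96). The cluster's interval was drawn mostly where Early exceeded Basal and these windows were not, so its higher Early mean is not independent of that choice.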

How the data were processed

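Hi-C PC1 was analysed in 5 libraries of sorted hippocampal neuronal nuclei. The deposited values are a signed score per 50 kb bin, made with HOMER on mm9, per the submitters' processing notes. For versions, aligner, read filters and the setting of the sign: not given in the sources used here. PC1 used 100 kb windows, so neighbouring bins share reads. Each library has an SD near 1 by construction, so overall compartment strength cannot be compared. The files hold no read counts, so depth is unknown and no counting interval is given.

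Bins with a value in all 5 libraries were kept on autosomes and X where every pair of libraries correlated at 0.5 or more, which left 47652 bins on 19 chromosomes (chromosome 7 had a lowest r of -0.976). limma 3.58.1 in R 4.3.3 was fitted across all of these bins with all 5 libraries, 2-sided, with Benjamini-Hochberg adjustment over all bins at 0.05. With 1 library, Early takes its spread from the other groups. Residual degrees of freedom were 2, and the prior added 6.60. p-values measure the spread between libraries, and whether replicates came from separate animals is not stated. The fit was tested on simulated data. Running means covered 10 Mb. Means and SDs used Python 3.11.15, numpy 2.4.6 and pandas 2.3.3. The interval, genes and stretches were chosen with earlier results of these data known. The named windows follow a fixed rule: the 3 closest, not overlapping. Alternatives were other scalings, trends, sets of bins, priors, weights, a replicate block and leaving out each library.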

Additional observations from a re-analysis of the deposited data

How the results depend on the processing

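Shares of the 77 bins past the threshold are given here with all bins of both directions. Late versus Basal (49.4%) gave 5.19% with a 5 Mb running mean removed, 0% with all sequences fitted, and 7.79% to 72.7% with 1 library left out. Early versus Basal (85.7%) gave 29.9% with the 5 Mb mean removed. Late versus Early (66.2%) gave 11.7% with the 5 Mb and 41.6% with the 10 Mb mean removed, 0% with all sequences and 28.6% weighted by local noise. A 5 Mb window is little longer than the 3850 kb interval, so it removes much of the interval's own level by construction. Adding all sequences leaves the differences as they are and changes only the shared variance and the bins adjusted over. For the weighting, the cause was not tested.

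The mean Late minus Basal difference (0.467) was 0.202 with the 5 Mb mean removed. Early minus Basal (1.09) was 0.930 with chromosome SD and median, and 0.316, 0.729 and 0.870 with 5, 10 and 20 Mb means removed. Late minus Early (-0.622) was -0.114 and -0.367 with the 5 and 10 Mb means removed. Counting all alternatives, 56 values of the 3 comparisons stayed near the value reported and 16 moved, and at the genes 69 stayed and 18 moved. Near was not 1 fixed fraction of the value. A share of 72.7% against 49.4% counted as near, and a difference of 0.930 against 1.09 as moved. The tallies alone therefore do not measure stability. No mean difference over the interval, or at Irx1, Irx2 or Irx4, changed direction in any alternative. The counts of called bins by direction did change, though they do not show whether any single bin changed direction. With the 5 Mb mean removed, Late versus Early had 4 bins higher and 5 lower, against 3 and 48 in the main fit. Late versus Basal then had 3 higher and 1 lower, against 38 and 0. With the replicate number as a replicate block, 57.1% of bins passed for Late versus Basal and no count moved by over 1.5 times. The deviations of same-numbered libraries correlated at 0.010 over all bins and 0.273 over the 77 bins of the interval. With fewer than 3 pairs, and no label that says what a number marks, the numbers were not taken to pair the libraries.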
